A study of Mus musculus with 2 samples.

Results

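The genes described here are 10 genes known for their expression in the choroid plexus, chosen by name: Ttr, Folr1, Kl, Clic6, Aqp1, Enpp2, Igf2, Slc4a5, Sostdc1 and Prlr. Each has 1 of the 31252 rows of the deposited count matrix, and 8 of the 10 had a mean count of at least 10, as did 15246 genes in all. They were measured in whole ventral midbrain from mice aged 2 months, listed as an incipient congenic C57BL/6 strain, with 1 library labelled Ctrl (Control) and 1 labelled OE. The labels give no genotype. Per the methods, Ctrl mice carry Slc6a3-Cre, and OE mice also carry ROSA26 CAG-S-COUP-TFII, which makes COUP-TFII in cells where Cre has acted. Slc6a3 encodes the dopamine transporter, so that Cre is made in dopaminergic (DA) neurons and the other cells of the tissue are not targeted. The methods describe littermates of a cross whose dams were homozygous for a floxed Tfam allele and a tdTomato reporter, so that both genotypes of that cross carry 1 copy of each, and mice of both sexes were used. The number of mice behind each library is not given in the sources used here.

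The choroid plexus is a sheet of epithelium around a vascular core that hangs into the brain ventricles and secretes the cerebrospinal fluid (CSF). Its epithelial cells move sodium, chloride, bicarbonate and water into the ventricle, carry folate and hormones across, and release transthyretin and growth factors into the fluid. The tissue is not a part of the ventral midbrain, though it lies near the midbrain and thalamus in the ventricles. Several of the 10 genes are also used elsewhere in the brain, such as Enpp2 in oligodendrocytes, Igf2 in the meninges and vessels, and Prlr in hypothalamic neurons. In a bulk sample, fewer cells of a type and less RNA per cell cannot be told apart.

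The total count was 16984336 in the Ctrl-labelled library and 21326632 in the OE-labelled library. They are expected counts, estimated by RSEM, and were scaled here with TMM factors to CPM, a level relative to the total count of each library. With 1 library per group there was no test, and no difference has a replicate check. Each log2 fold change is that of the OE-labelled over the Ctrl-labelled library. Its 95% interval comes from how the gene's counts divide between the libraries and covers counting error only, and reads from PCR without molecular identifiers are not independent molecules. Nr2f2, the gene for COUP-TFII, had 637 counts in the Ctrl-labelled library and 377 in the OE-labelled library, with a log2 fold change of -1.07 (interval -1.26 to -0.88). The overexpressed gene thus went against the labels in bulk tissue, where its counts can also come from cells that were not targeted. The paper measured the rise of COUP-TFII mRNA in isolated DA neurons, so the bulk value checks the labels only in part. Every direction below is that of the labels as given.

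Of the 10 genes, only Ttr differed by more than 2-fold among those with a mean count of at least 10. It was 7.90-fold lower in the OE-labelled library. Past log2 1, 0 of the 8 genes were higher and 1 was lower in the OE-labelled library, where over all 15246 genes 1.53% were higher and 1.28% lower. Past log2 0.2, the threshold of the study's methods, Clic6 was higher and 4 genes were lower, namely Ttr, Kl, Igf2 and Enpp2. Over all genes, 17.9% were higher and 16.6% lower past log2 0.2. The counting intervals of these 4 lower genes lay below 0, and no interval of the 10 lay above 0. Over the 8 genes the median log2 fold change was -0.24, where over all 15246 genes it was 0.0047. Without Enpp2 and Igf2, which oligodendrocytes and meninges also express, the median of the others was 0.0042, and without Ttr it was -0.14. Over the members with a mean count of at least 100 it was -0.39.

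**Figure D1:**
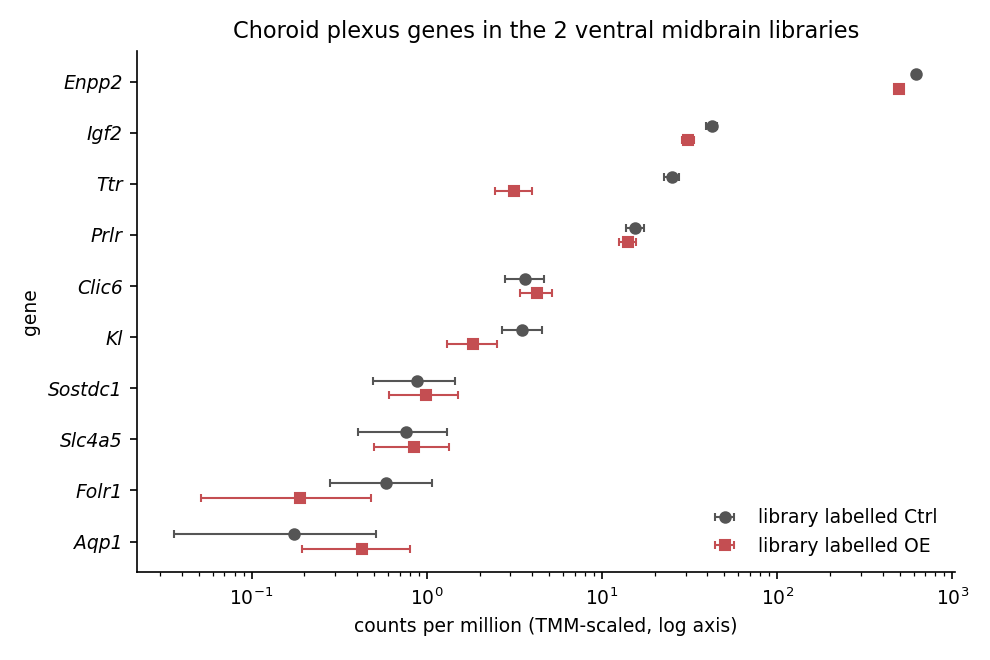
TMM-scaled CPM of the 10 genes (log axis) in the Ctrl-labelled library (grey circles) and the OE-labelled library (red squares), with 95% Poisson intervals of each count, which cover counting error only. Ttr shows the widest separation, from 24.9 to 3.16 CPM, while the pairs of Prlr, Clic6, Sostdc1, Slc4a5, Folr1 and Aqp1 have intervals that overlap.

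Ttr encodes transthyretin, a secreted carrier of thyroxine and of the retinol-binding protein, and is among the most abundant transcripts of choroid plexus epithelium. It lies at chr18:20665280-20674321 on the plus strand (GENCODE M21, GRCm38), with 1 annotated transcript. Ttr had 426 counts in the Ctrl-labelled library and 67 in the OE-labelled library. Its log2 fold change was -2.97 (interval -3.38 to -2.61), the 17th lowest of the 15246 genes. Among the 11735 genes with a mean count of at least 100, 3 had a lower value: AK202078, Tnnt1 and Ramp3, which were named after their values were seen. The separation of Ttr was thus at the far edge of the whole comparison rather than within its bulk.

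**Figure D2:**
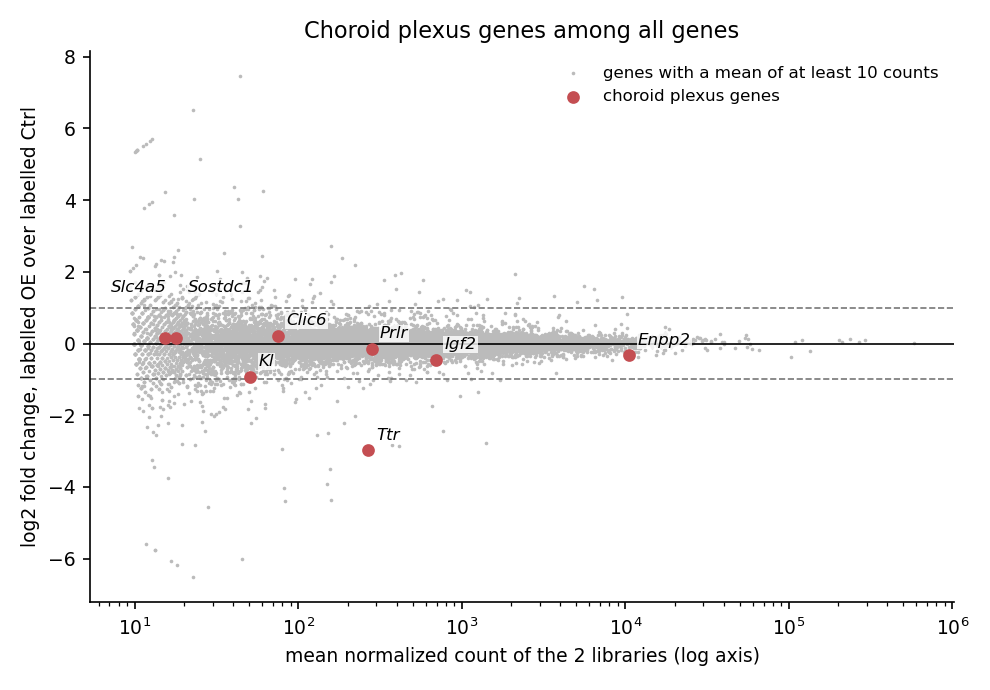
Log2 fold change (OE-labelled over Ctrl-labelled library) against the mean normalized count of both libraries (log axis) for the 15246 genes with a mean count of at least 10 (grey) and the 8 choroid plexus genes among them (red), with dashed lines at log2 1 on both sides. Ttr lies at -2.97 below nearly all genes of its abundance, and the other 7 lie between the dashed lines.

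Scaling between the libraries does not touch the ratio of Ttr to another gene within a library. For each count of Clic6 there were 6.87 counts of Ttr in the Ctrl-labelled library and 0.744 in the OE-labelled library. For each count of Kl there were 7.10 and 1.72, and for each count of Prlr 1.61 and 0.226. Ttr was thus lower relative to each of these genes. For Folr1 the ratio went from 42.6 to 16.8, but it rests on 10 and 4 counts of Folr1. The ratio was closer between the libraries for 2 further epithelial genes of few counts, at 32.8 and 22.3 for Kcnj13 and 60.9 and 33.5 for Calml4.

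The genes with a fold change closest to that of Ttr, among non-members with a mean count of at least 100, were Rgs16 (-2.85), Shox2 (-2.84), Tcf7l2 (-2.78), Vipr2 (-2.54) and Slc17a7 (-2.51). Likeness here is the distance between 2 log2 fold changes over the 2 libraries, so it says only that the ratios are close. Tcf7l2, a transcription factor of the Wnt pathway, had 2204 counts in the Ctrl-labelled library and 398 in the OE-labelled library. Rgs16, a regulator of G-protein signalling, had 647 and 111. Both belong to a list of 9 thalamus markers, of which 8 were lower past log2 1 and the median was -2.21. The summed level of that list was 641 CPM in the Ctrl-labelled library and 317 in the OE-labelled library, with Gbx2 at 0 counts in the latter. Calb2, the marker not past log2 1 (-0.17), made up 235 CPM of the first sum and 208 CPM of the second. The part of the difference in thalamus markers in the result for Ttr was not tested.

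Among the receptors, Kl (klotho, a co-receptor for FGF23 that is also shed into the CSF) had 60 counts in the Ctrl-labelled library and 39 in the OE-labelled library. Its log2 fold change was -0.92 (interval -1.55 to -0.33), so after Ttr it was the member furthest from 0 among the 8, just short of 2-fold. Kl lies at chr5:150952607-150993817 on the plus strand. Its promoter window in RefSeq (GRCm38.p6, chr5:150952357-150952656, plus strand), from 250 bases before to 50 bases after the start site, is shown because Kl is the nearest to Ttr in its difference among the members with a mean count of at least 10. It holds 67.3% G and C and 19 CpG dinucleotides, where the medians over all 32851 promoter windows are 52.7% and 7. Neither AGGTCA, the half-site bound by COUP-TF receptors, nor TAATCC, the site of the choroid plexus factor OTX2, is in this window on either strand.
Kl promoter: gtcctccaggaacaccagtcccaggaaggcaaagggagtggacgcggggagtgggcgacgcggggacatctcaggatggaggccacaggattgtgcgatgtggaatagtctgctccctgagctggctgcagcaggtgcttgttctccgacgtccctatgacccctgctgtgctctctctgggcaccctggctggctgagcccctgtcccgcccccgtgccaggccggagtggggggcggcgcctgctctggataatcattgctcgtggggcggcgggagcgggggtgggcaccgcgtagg

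Folr1, the high-affinity folate receptor that carries folate across the epithelium, had 10 counts in the Ctrl-labelled library and 4 in the OE-labelled library. It lies at chr7:101858331-101870788 on the minus strand. The log2 fold change was -1.51, but the interval from -3.76 to 0.16 holds 0, and no difference was detectable at this depth. Prlr, the receptor for prolactin and placental lactogens, had 264 and 297 counts, with a log2 fold change of -0.14 (interval -0.39 to 0.10). It lies at chr15:10177238-10349180 on the plus strand and shares 203 exonic bases with the gene Gm21973 on the same strand. Prlr was thus measured at a depth that would show a change much smaller than that of Ttr, and its interval still held 0.

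Of the secreted factors besides transthyretin, Enpp2 and Igf2 were the most abundant of the 10 genes in counts. Enpp2 encodes autotaxin, the enzyme that makes lysophosphatidic acid (LPA) outside the cell. It had 10594 counts in the Ctrl-labelled library and 10449 in the OE-labelled library, with a log2 fold change of -0.33 (interval -0.37 to -0.29). Enpp2 held 87.1% of the CPM of the 10 genes in the Ctrl-labelled library and 89.7% in the OE-labelled library, so a sum over the 10 genes is in the main a value of Enpp2. Markers of oligodendrocytes, which also express Enpp2, moved in the same direction. All 11 were below 0, 8 of them past log2 0.2, with a median of -0.32 and a summed level of 21037 CPM in the Ctrl-labelled library and 17589 in the OE-labelled library. Mbp, the most abundant of them, had a log2 fold change of -0.20, and no marker of the list was at 0. The part of oligodendrocytes in the value of Enpp2 was not tested. Enpp2 lies at chr15:54838901-54952892 on the minus strand, and Gm26684 on the opposite strand shares 345 of its exonic bases.

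Igf2, a growth factor that the choroid plexus releases into the CSF, had 722 counts in the Ctrl-labelled library and 656 in the OE-labelled library. The log2 fold change was -0.45 (interval -0.61 to -0.30), a 1.37-fold lower level. Meninges and fibroblasts also make Igf2, and all 14 of their markers that passed the count minimum were below 0. Of these, 11 were past log2 0.2 and 1, Slc22a6, was past log2 1, with a median of -0.60. Their summed level was 106 CPM in the Ctrl-labelled library and 74.9 in the OE-labelled library, and Dcn and Bgn, the most abundant, had log2 fold changes of -0.18 and -0.59. None of the 15 listed markers was at 0 in either library. The part of these cells in the value of Igf2 was not tested.

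Igf2 lies at chr7:142650766-142666816 on the minus strand. The gene Gm49394 shares 3596 exonic bases with it on the same strand and Igf2os shares 98 on the opposite strand, and Igf2os had only 4 and 1 counts. Igf2 has 4 promoter windows in RefSeq (GRCm38.p6), of 10 windows searched for 5 of the genes. The others are those of Kl, Aqp1, Slc4a5 and Prlr. The promoter of Ttr was left out of this search. The windows of Igf2 are shown where they hold a searched motif, in capitals and in its reverse complement: TGACCT, for the COUP-TF half-site, begins at base 17 of the window at chr7:142666767-142667066, and GGATTA, for OTX2, at base 261 of the window at chr7:142658755-142659054. The half-site in either orientation is in 16.3% of all promoter windows and the OTX2 letters in 7.06%, and neither was in the other 8 windows of these genes. A match of letters is a description and not a bound site, and counts per gene do not tell which promoter was used.
Igf2 promoter with the half-site: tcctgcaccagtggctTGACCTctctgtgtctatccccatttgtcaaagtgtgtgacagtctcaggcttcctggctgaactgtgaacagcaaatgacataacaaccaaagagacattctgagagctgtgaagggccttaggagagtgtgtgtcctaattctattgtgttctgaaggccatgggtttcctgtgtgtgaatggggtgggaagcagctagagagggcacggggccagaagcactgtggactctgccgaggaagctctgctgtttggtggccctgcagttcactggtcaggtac
Igf2 promoter with the OTX2 letters: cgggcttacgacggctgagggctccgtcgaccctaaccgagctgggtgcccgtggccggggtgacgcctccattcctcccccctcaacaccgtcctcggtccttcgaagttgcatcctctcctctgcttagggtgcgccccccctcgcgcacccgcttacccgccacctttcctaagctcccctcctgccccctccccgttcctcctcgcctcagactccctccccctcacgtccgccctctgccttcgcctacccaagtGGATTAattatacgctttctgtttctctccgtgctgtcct

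Sostdc1, a secreted antagonist of BMP and Wnt signals, had 15 counts in the Ctrl-labelled library and 21 in the OE-labelled library. Its log2 fold change was 0.17 (interval -0.85 to 1.23). It lies at chr12:36314139-36318452 on the plus strand. No difference in Sostdc1 was detectable at this depth.

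The genes of ion and water transport had 90 counts or fewer in each library. Clic6, a member of the chloride intracellular channel family, had 62 counts in the Ctrl-labelled library and 90 in the OE-labelled library, with a log2 fold change of 0.22 (interval -0.26 to 0.72). Slc4a5, a sodium bicarbonate cotransporter of the apical membrane, had 13 and 18 counts and a log2 fold change of 0.15 (interval -0.95 to 1.31). Aqp1, the apical water channel that marks choroid plexus epithelium, had 3 and 9 counts, a ratio of 2.41 with a log2 interval from -0.73 to 3.79. None of these 3 intervals excluded 0, so no difference in the transport genes was detectable at this depth. Clic6 lies at chr16:92485736-92541243, Slc4a5 at chr6:83219828-83304945 and Aqp1 at chr6:55336432-55348555, all on the plus strand.

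**Figure D3:**
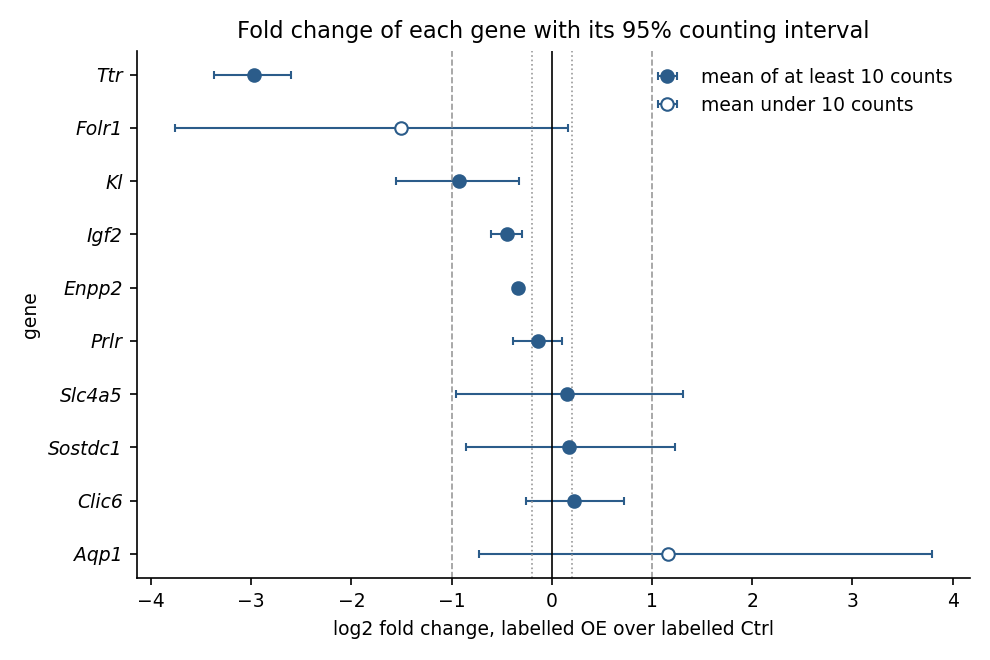
Log2 fold change (OE-labelled over Ctrl-labelled library) of the 10 genes with 95% counting intervals (filled: mean of at least 10, open: fewer), with dashed lines at log2 1 and dotted lines at log2 0.2 on both sides. Only the intervals of Ttr, Kl, Igf2 and Enpp2 lie wholly below 0, and that of Ttr is the only one wholly past log2 1.

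Per length, Enpp2 had the highest level of the 10 genes in both libraries, 200 CPM per kilobase of its longest coding transcript in the Ctrl-labelled library and 159 in the OE-labelled library. Ttr was second in the Ctrl-labelled library with an interval of 19.1 to 23.1 CPM per kilobase, ahead of Igf2 with 8.95. In the OE-labelled library these traded places, with 6.55 for Igf2 and 2.66 for Ttr, and the Poisson intervals of the pair did not overlap in either library. Prlr followed with 1.56 and 1.41, and its interval overlapped that of Clic6 in the OE-labelled library alone. Clic6, Kl, Sostdc1, Folr1, Slc4a5 and Aqp1 were below these, from 0.966 down to 0.0669 in the Ctrl-labelled library and from 1.13 down to 0.144 in the OE-labelled library. Among these 6 genes, neighbours in the order had overlapping intervals in the Ctrl-labelled library, and so did all but Clic6 and Sostdc1 in the OE-labelled library.

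The name of the group was checked against a list of 38 further genes known from choroid plexus. Of these, 28 had a mean count of at least 10. Past log2 1, 5 were higher and 2 lower, and past log2 0.2, 10 were higher and 9 lower, with a median of 0.021. Over all genes, 1.53% were higher and 1.28% lower past log2 1, and 17.9% and 16.6% past log2 0.2. The genes above the count minimum thus lay on both sides of 0, and those below it are given further on. Its most abundant genes are also neuronal: the serotonin receptor gene Htr2c had 3010 and 3666 counts (log2 fold change -0.03) and the channel gene Trpm3 had 1269 and 1426 (-0.14). Otx2, a transcription factor of choroid plexus and midbrain, had 149 and 166 counts (-0.16).

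The tight junction genes Cldn2 and Cldn1 were higher in the OE-labelled library, with 9 and 35 counts (log2 fold change 1.60, interval 0.56 to 2.89) and 27 and 101 counts (1.57, interval 0.97 to 2.26). Mfrp, a membrane protein gene, was listed at 0 and 50.4 counts, at least 13.5-fold higher against a floor of 3 counts. RSEM divides reads that more than 1 gene could give, and Mfrp overlaps C1qtnf5 (183 and 220 counts), so this value is uncertain. The others past log2 1, Slc39a4 (1.04) and Steap4 (1.29) on the higher side and Col8a2 (-1.28) and 1500015O10Rik (-1.25) on the lower, were named after their values were seen. These genes thus moved in both directions.

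Below the count minimum, 8 further choroid plexus genes had any count, and 7 of them were lower in the OE-labelled library, the exception being Kcne2 with 6 and 11 counts. Among all 2455 genes in the same range of mean count, 49.7% were lower. Kcnj13, a potassium channel of the apical membrane, had 13 counts in the Ctrl-labelled library and 3 in the OE-labelled library, with an interval from -4.88 to -0.57. F5, the coagulation factor V gene, had 12 and 4 (interval -3.99 to -0.18), and the calmodulin-like Calml4 had 7 and 2. The 8 genes summed to 55 counts in the Ctrl-labelled library and 27 in the OE-labelled library. Slc16a8 and Slco1a5 were at 0 in both libraries, and the keratin gene Krt8 had 2 and 1 counts. Folr1, Aqp1, Kcnj13 and Calml4, named after their values were seen, were thus at 13 counts or fewer in both libraries, where Ttr had 426 and 67. Other listed genes had more, such as Clic6 (62 and 90), Slc13a4 (63 and 45) and Car14 (630 and 765). The name of the group describes what the genes are known for, and the amount of choroid plexus cells in each library was not tested.

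Ependyma, the ciliated lining of the ventricles next to the choroid plexus, did not move as a list. Of 14 marker genes with a row, 9 passed the count minimum, with 2 higher and 2 lower past log2 1 and a median of 0.063. Foxj1, the master factor of motile cilia, had 245 and 318 counts (log2 fold change 0.06). Ccdc153 had 21 counts in the Ctrl-labelled library and 0 in the OE-labelled library, at least 8.70-fold lower, while Hdc had 67 and 187 (1.16). The summed level was 32.6 CPM in the Ctrl-labelled library and 36.1 in the OE-labelled library.

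**Figure D4:**
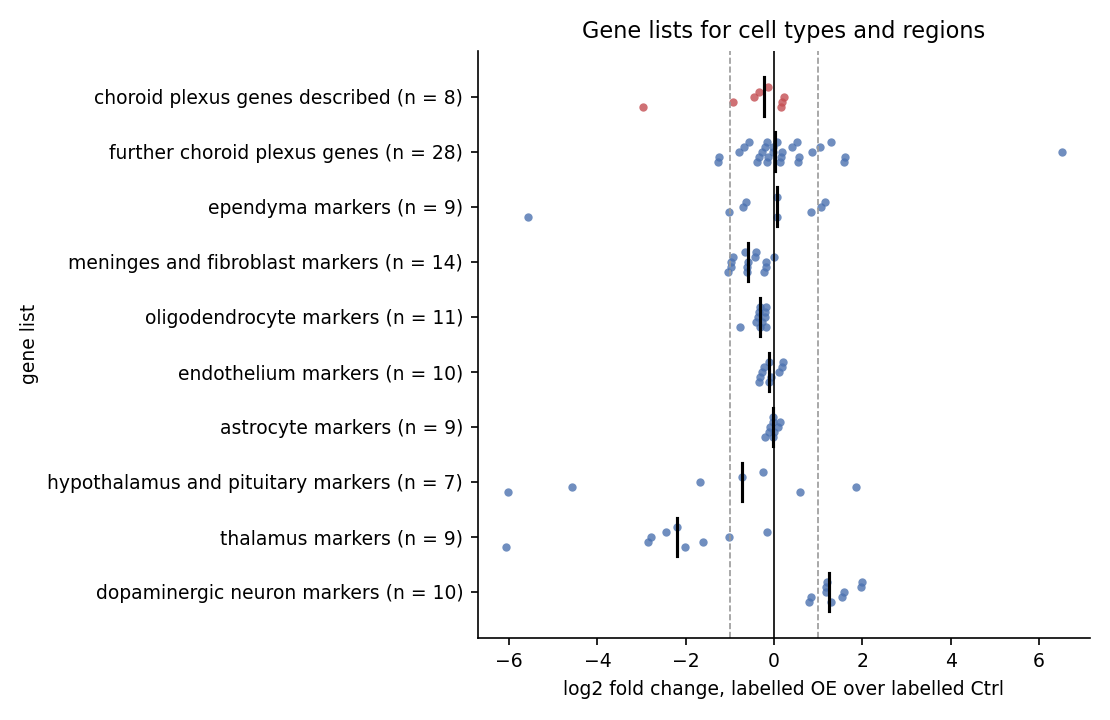
Log2 fold change (OE-labelled over Ctrl-labelled library) of each gene with a mean count of at least 10 in 10 lists (points), with the median of each list (black bars) and dashed lines at log2 1 on both sides. Ttr at -2.97 stands apart from the rest of its list and lies among the thalamus markers, while markers of DA neurons all lie above 0.

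Markers of some other cell types differed between the libraries. All 10 markers of DA neurons were higher in the OE-labelled library past log2 0.2, and 8 past log2 1, with a median of 1.24 and summed levels of 1436 and 3333 CPM. Of 7 hypothalamus and pituitary markers that passed the count minimum, 3 were lower and 1 higher past log2 1, and Oxt and Avp had 48.4 and 80.6 counts in the Ctrl-labelled library and 2 and 1 in the OE-labelled library. Endothelium, astrocyte and blood cell markers had medians of -0.12, -0.023 and 0.089. The labels name DA neurons as the cell type, but the abundant oligodendrocyte and astrocyte markers show a mixed tissue. With 1 library per group, genotype and the cells that went into each library cannot be told apart.

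Among the partners of the 10 genes, those with a mean count of at least 10 had smaller differences than Ttr. Below that count, Prl (6 and 0 counts), Folr2 (4 and 0) and Aqp6 (11 and 1) were lower in the OE-labelled library. Transport of thyroid hormone and retinol, the cargo of transthyretin, had 8 other genes past the count minimum, of which 4 were higher and 2 lower past log2 0.2 and 0 were past log2 1. Rbp4, the retinol carrier that docks on transthyretin, had 42 counts in the Ctrl-labelled library and 96 in the OE-labelled library (log2 fold change 0.87, interval 0.34 to 1.44). Rbp4 was thus on the other side of 0 from Ttr. The thyroid hormone receptor gene Thra had 5837 and 7561 counts (0.06), and the thyroxine transporter gene Slco1c1 had 935 and 982 (-0.24).

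The IGF axis had 11 other genes, with 3 higher and 4 lower past log2 0.2. The binding proteins Igfbp2 (422 and 352 counts), Igfbp4 (268 and 228) and Igfbp5 (3631 and 3288) had log2 fold changes of -0.57, -0.55 and -0.46, near that of Igf2. The receptor gene Igf1r had 1416 and 1660 counts (-0.08), and H19, the imprinted neighbour of Igf2, was at 0 in both libraries. Igfbp3 and Igfbp6 were at 0.37 and 0.48, so the binding proteins lay on both sides of 0.

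For Enpp2, 7 other genes of LPA were counted, with 2 higher and 2 lower past log2 0.2. Lpar1, an LPA receptor gene that oligodendrocytes express, had 1600 and 1468 counts (log2 fold change -0.44, interval -0.54 to -0.33), and the phosphatase gene Ppap2b, now Plpp3, had 4347 and 4770 (-0.18). For Sostdc1, 10 partners were counted, of which 0 were higher and 6 lower past log2 0.2. Bmp4 had 57 and 32 counts (-1.13, interval -1.82 to -0.50), the only one past log2 1, and Nog, an antagonist of BMP ligands, had 49 and 38 (-0.67). The abundant receptor genes Bmpr2 and Bmpr1a were at -0.04 and -0.12, and the antagonist gene Chrd at 0.02, so Bmp4, Nog, Bmp7 (-0.56) and Bmp6 (-0.51) were the furthest from 0.

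For Folr1, 10 genes of folate uptake and use gave 2 higher and 2 lower past log2 0.2, among them Slc46a1, the proton-coupled folate transporter, with 157 and 148 counts (log2 fold change -0.40, interval -0.73 to -0.07). Shmt1, with 9 and 22 counts, was furthest from 0 (0.94, interval -0.20 to 2.28). For Prlr, 7 genes gave 3 higher and 2 lower, with the kinase gene Jak2 at -0.21 and Stat5b at 0.06. Prl, the hormone itself, had 6 counts in the Ctrl-labelled library and 0 in the OE-labelled library. For Kl, 4 genes passed, with Fgfr1 and Fgfr3 at 0.01 and -0.03 and the ligand gene Fgf23 at 17 and 26 counts (0.29, interval -0.64 to 1.27). None of the other genes of these lists with a mean count of at least 10 was past log2 1.

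The machinery of CSF secretion had 12 other genes past the count minimum, of which 0 were higher and 4 lower past log2 0.2, and 0 were past log2 1. The sodium pump subunits Atp1b1 and Atp1b2 had 30420 and 41417 and 13511 and 16896 counts, with log2 fold changes of 0.13 and 0.01. The carbonic anhydrase genes Car2, abundant also in oligodendrocytes, and Car12 were at -0.37 and -0.34, the latter with an interval from -0.98 to 0.29. Within the families of the members, Clic4 had 4477 and 4739 counts (-0.23) against 62 and 90 for Clic6, and Aqp4, the astrocyte water channel, had 6623 and 7079 (-0.22) against 3 and 9 for Aqp1. The pumps and channels of other brain cells were thus covered by far more counts than Clic6 and Aqp1.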

How the data were processed

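RNA of the ventral midbrain gave 2 libraries, labelled Ctrl and OE, each matched to its column by the number in its title. Per the methods, a company made stranded polyadenylated libraries, read 50 bp from both ends. The authors deposited RSEM expected counts, not scaled between libraries (mm10 per the labels, aligner and annotation not given in the sources used here). All counts of the 10 genes were whole.

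Counts were scaled with TMM factors (edgeR 4.0.16, R 4.3.3), and were rounded to whole numbers for those factors and for the intervals of fold changes only. Log2 fold changes used a pseudocount of 0.5 and, for shares and medians, genes with a mean count of at least 10. Intervals are 95% Clopper-Pearson intervals for how a gene's counts divide, or Poisson intervals of a single count (scipy 1.17.1). A fold against a library at 0 was computed against 3 counts per library. No test was possible with 1 library per group. Lengths and positions came from GENCODE M21 (GRCm38), promoters from RefSeq. The genes and the 20 lists were chosen with earlier results of these data known. Named were the members, up to 2 most abundant and 2 most different genes per list, and the 5 genes nearest Ttr; any other gene was named after its values were seen. The intervals were tested on simulated Poisson counts, which vary by counting error only. That checks the computation and cannot show the spread between mice or dissections. Alternatives were other scalings, a pseudocount of 5, and other count minimums, call rules and members.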

Additional observations from a re-analysis of the deposited data

How the results depend on the processing

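The log2 fold change of Ttr ranged from -2.99 to -2.88 under total count, upper quartile and DESeq2 scaling, a pseudocount of 5 and other count minimums. Those of Kl (-0.94 to -0.85), Igf2 (-0.47 to -0.45), Enpp2 (-0.35 to -0.33) and Nr2f2 (-1.08 to -1.06) kept their direction as well. The median of all genes stayed between -0.011 and 0.0049. Folr1 moved from -1.51 to -0.91 and Aqp1 from 1.16 to 0.65 with a pseudocount of 5, which by construction draws low counts to 0. The median of the members, -0.24, was -0.39 with a mean count of at least 100, by which 4 genes are left. It was -0.14 without Ttr and 0.0042 without Enpp2 and Igf2. Its sign thus depends on which members are counted, and of the alternatives run only the one without Enpp2 and Igf2 reversed it. Leaving out any 2 of Ttr, Kl, Igf2 and Enpp2 would leave the same genes in the middle, Prlr and Slc4a5. Without a count minimum, Folr1 and Aqp1 enter. Then 1 member was higher and 2 were lower past log2 1, and 2 were higher and 5 lower past log2 0.2. Clic6 was the only member higher past log2 0.2, and 0 were with a mean count of at least 100 or where the counting interval had to exclude 0. Over all genes, 7.17% were higher and 6.74% lower past log2 1 without a count minimum, and 0.375% and 0.256% with a mean count of at least 100. Past log2 0.2 these shares were 23.5% and 23.4% without a count minimum, and 13.0% and 11.7% with a mean count of at least 100. Depth limits most the 4 members with at most 25 counts in both libraries. No paired analysis was possible because Ctrl and OE have only 1 library apiece.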
